A study of Mus musculus with 8 samples.

Results

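The 10 genes described here encode receptors, ligands and feedback inhibitors of fibroblast growth factor (FGF), platelet-derived growth factor (PDGF) and hepatocyte growth factor (HGF) signalling. They are the FGF receptors Fgfr1, Fgfr2 and Fgfr3, the HGF receptor Met, the ligands Pdgfa and Pdgfb with their receptors Pdgfra and Pdgfrb, and the inhibitors Spry2 and Spry4. They were chosen by name, with earlier results of these data known. Each was read from the probeset whose only gene symbol was that name. All 10 were found, with 1 probeset each, among 19937 genes.

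Expression was measured on 8 arrays of total RNA from NMuMG, a mouse mammary gland epithelial line. The 4 groups of 2 arrays were cells with a stably transfected major satellite vector after 8 h of TGFbeta, the same cells untreated, control vector cells after 8 h of TGFbeta, and untreated control vector cells. Major satellite is the tandem repeat of mouse pericentromeric chromatin. Neither the TGFbeta dose nor whether the transfected lines were clones or pools is given in the labels. Untreated arrays were labelled 0 h, so the treatment and the 8 h in culture cannot be told apart. Each array title held a code shared by 1 array of every group, given here as replicate number 1 or 2.

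FGF, PDGF and HGF receptors are receptor tyrosine kinases. Ligand binding pairs the receptors, which phosphorylate each other and recruit adaptors that start the Ras-MAP kinase and phosphatidylinositol 3-kinase cascades. Sprouty proteins are induced by these signals and restrain the MAP kinase branch. Epithelial cells typically make the form of FGFR2 that binds FGFs from the stroma. HGF, also called scatter factor, acts on epithelial MET, and PDGF receptors are best known on mesenchymal cells, with PDGF often supplied by the neighbouring epithelium. NMuMG cells are a common model of the epithelial-mesenchymal transition, which TGFbeta starts in them.

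After TGFbeta, Fgfr2 fell and Pdgfa and Pdgfra rose in the mean response of both vectors. These 3 were the members that passed limma's test with 1 mean per group (adjusted p under 0.05), a test that called 4.83% of all genes (2.57% higher and 2.25% lower). When the replicate number was a further term, 9 of the 10 members passed, 5 higher and 4 lower, where 24.3% of all genes did (11.2% higher and 13.1% lower). The 5 were Fgfr1, Pdgfa, Pdgfb, Pdgfra and Pdgfrb, the 4 were Fgfr2, Fgfr3, Met and Spry2, and Spry4 passed in neither model. The median size of the members' mean response was 0.71 log2 units, beside 0.11 over all genes. Because the members were chosen with earlier results known, shares of all genes given beside them do not test for an excess. In each vector alone, 1 of 10 passed without the replicate number, Fgfr2 in both, where 1.09% of all genes did in major satellite cells and 1.07% in control vector cells. With it, 8 passed in major satellite cells (15.3% of all genes) and 7 in control vector cells (14.6%). Values from the model with the replicate number are called blocked.

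**Figure D1:**
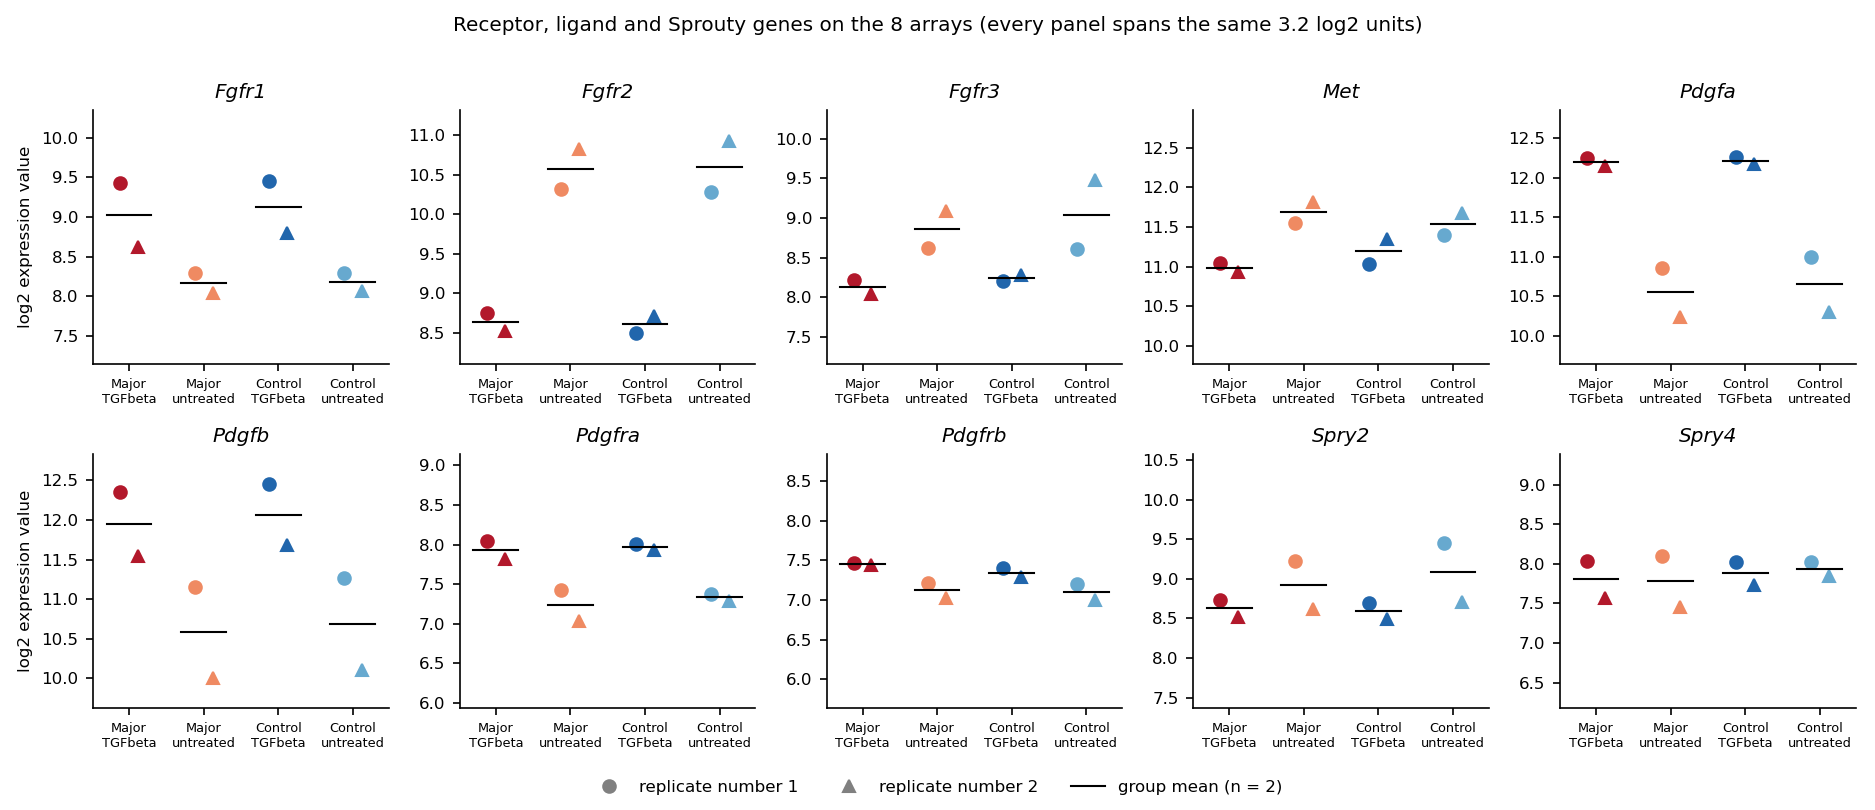
Log2 expression values of the 10 genes (vertical axes, every panel spanning the same number of log2 units) on each array, by group (horizontal axis). Circles are replicate number 1, triangles replicate number 2 and bars the mean of the 2 arrays. Fgfr2 lies between 8.51 and 8.75 on the TGFbeta arrays and between 10.28 and 10.92 on the untreated ones, whereas Spry4 overlaps between them.

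Without regard to vector, 8 of the 10 members had 4 TGFbeta arrays that did not overlap with the 4 untreated arrays, against 14.8% of all genes. The 2 that overlapped were Spry2 and Spry4. Within the 4 pairs of arrays that shared vector and replicate number, 9 members had the same sign in all 4, against 42.1% of all genes. Spry4 was the exception, with 1 pair higher and 3 lower.

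The sequences before the transcription starts are shown for Fgfr2, Pdgfa and Pdgfra, the members that passed in both models. They come from RefSeq on build GRCm38.p6 and hold the 250 bases upstream of an annotated start, read 5′ to 3′ on the strand of the gene. Capitals mark matches, on either strand, to a Smad site (CAGAC), an AP-1 site (TGANTCA), the E-box bound by Snail and Zeb factors (CACCTG) or a GC box (GGGCGG). A match is a description of letters and does not show binding. The window of Fgfr2 is chr7:130266809-130267058 on the minus strand, that of Pdgfa chr5:138994945-138995194 on the minus strand, and that of Pdgfra chr5:75152001-75152250 on the plus strand.
Fgfr2: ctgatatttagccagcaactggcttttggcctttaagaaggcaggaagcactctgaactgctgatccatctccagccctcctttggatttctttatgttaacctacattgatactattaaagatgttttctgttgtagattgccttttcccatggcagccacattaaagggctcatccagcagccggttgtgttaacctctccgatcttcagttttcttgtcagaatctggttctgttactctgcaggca
Pdgfa: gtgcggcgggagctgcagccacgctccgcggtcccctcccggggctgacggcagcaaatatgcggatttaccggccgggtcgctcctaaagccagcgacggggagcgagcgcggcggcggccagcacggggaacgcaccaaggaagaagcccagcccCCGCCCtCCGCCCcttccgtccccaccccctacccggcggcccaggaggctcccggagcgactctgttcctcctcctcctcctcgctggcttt
Pdgfra: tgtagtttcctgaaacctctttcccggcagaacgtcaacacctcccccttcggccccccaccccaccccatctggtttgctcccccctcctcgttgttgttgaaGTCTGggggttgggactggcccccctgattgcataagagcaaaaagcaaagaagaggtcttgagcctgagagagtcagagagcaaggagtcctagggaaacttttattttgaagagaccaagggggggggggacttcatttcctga

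The Fgfr2 window held none of the 4 motifs and had 44.0% G or C. That of Pdgfa had 72.4% G or C and 2 GC boxes, starting 93 and 86 bases before the start. Its second annotated start, at which the window was chr5:138994282-138994531, had 1 GC box. The Pdgfra window had 54.4% G or C and 1 Smad site, starting 146 bases before the start. Among all 32851 windows of that length, 42.2% held the Smad site, 6.75% the AP-1 site, 17.2% the E-box and 32.7% the GC box. Windows were also read for Fgfr3, Met and Spry2, so that 6 of the 10 members had one. Met, with 1 Smad site, 1 AP-1 site and 3 GC boxes, held the one AP-1 site among the members' windows.

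Fgfr2, which encodes an FGF receptor of epithelia, was the member that changed most. In major satellite cells it had log2 values of 8.75 and 8.52 after TGFbeta (replicate numbers 1 and 2), against 10.32 and 10.83 untreated. Control vector cells had 8.51 and 8.72 after TGFbeta, against 10.28 and 10.92 untreated. All 4 TGFbeta arrays were far below all 4 untreated ones, with differences between partner arrays of -1.57 to -2.31. On average Fgfr2 fell by 1.96 ± 0.18 on the log2 scale, 3.90-fold (limma adjusted p = 0.00381, SE, 4 arrays of each treatment). It changed by -1.94 ± 0.26 in major satellite cells (adjusted p = 0.0341) and by -1.99 ± 0.26 in control vector cells (adjusted p = 0.0276). The mean response passed with any 1 array left out (adjusted p = 0.00872 to 0.0271). In control vector cells alone the call was lost with each of the 8 arrays left out (0.0502 to 0.171), and in major satellite cells it held without either untreated control vector array and was lost with each of the other 6 arrays left out (0.0443 to 0.253 over the 8 fits). Blocked, it passed in all of these fits.

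The probeset of Fgfr2 reports the gene as a whole, so its epithelial and mesenchymal splice forms were not separated. Of the splicing regulators that favour the epithelial form, Esrp1 passed in neither model and Esrp2 fell only blocked. Log2 values of Esrp1 ran from 5.90 to 6.28 over the arrays. Esrp2 differed by -0.27 ± 0.13 in the mean response (adjusted p = 0.445, blocked 0.0281), and Esrp1 by -0.02 ± 0.12 (adjusted p = 0.985, blocked 0.922).

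Fgfr1, the FGF receptor of many mesenchymal cells, ran the other way. Its log2 values in major satellite cells were 9.43 and 8.62 after TGFbeta, against 8.30 and 8.04 untreated. Control vector cells had 9.45 and 8.80 after TGFbeta, against 8.30 and 8.07 untreated. All 4 TGFbeta arrays were above all 4 untreated ones. The mean difference was 0.90 ± 0.23, 1.86-fold, which did not pass (adjusted p = 0.0911), whereas blocked Fgfr1 rose (0.90 ± 0.10, adjusted p = 0.000211). By vector the differences were 0.85 in major satellite cells (blocked adjusted p = 0.00398) and 0.94 in control vector cells (blocked adjusted p = 0.00239). Replicate number 1 gave larger differences (1.13 with the major satellite and 1.16 with the control vector) than number 2 (0.57 and 0.73).

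Fgfr3, another FGF receptor found in epithelia, was lower after TGFbeta. In major satellite cells it had 8.22 and 8.04 after TGFbeta, against 8.62 and 9.09 untreated, and in control vector cells 8.20 and 8.28 after TGFbeta, against 8.60 and 9.47 untreated. The TGFbeta arrays lay close together and below every untreated array, and the untreated arrays of each vector differed between replicate numbers. By vector the blocked calls in major satellite cells (-0.73, adjusted p = 0.0413) and control vector cells (-0.80, adjusted p = 0.0287) were lost in 5 and 3 of the 8 blocked fits with 1 array left out. The mean difference was -0.76 ± 0.21 (adjusted p = 0.118), and blocked Fgfr3 fell by 0.76 ± 0.14 (adjusted p = 0.00392). Within replicate number 1 it was -0.41 with the major satellite and -0.40 with the control vector, and within number 2 it was -1.05 and -1.19. Without untreated control vector replicate 1, Fgfr3 also passed in the model with no replicate number (-0.98, adjusted p = 0.0339). RefSeq lists a pseudogene of Fgfr3, and whether the probes match it was not analysed here.

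Met, which encodes the HGF receptor, had log2 values of 11.04 and 10.93 after TGFbeta in major satellite cells, against 11.55 and 11.82 untreated. Its control vector values were 11.03 and 11.35 after TGFbeta, against 11.39 and 11.67 untreated. The TGFbeta arrays were below the untreated ones, by a margin of only a few hundredths between the closest 2. Its mean difference of -0.52 ± 0.12 did not pass (adjusted p = 0.0747), and blocked Met fell by 0.52 ± 0.08 (adjusted p = 0.00142). The response was -0.70 in major satellite cells (blocked adjusted p = 0.00364) and -0.34 in control vector cells (blocked adjusted p = 0.0882). In major satellite cells the blocked call was lost without untreated major satellite replicate 2 (adjusted p = 0.0501). The difference between the 2 responses, -0.36 ± 0.25 without the block, did not pass (adjusted p = 1, blocked 0.999), with a blocked 95% interval of -0.72 to 0.01.

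**Figure D2:**
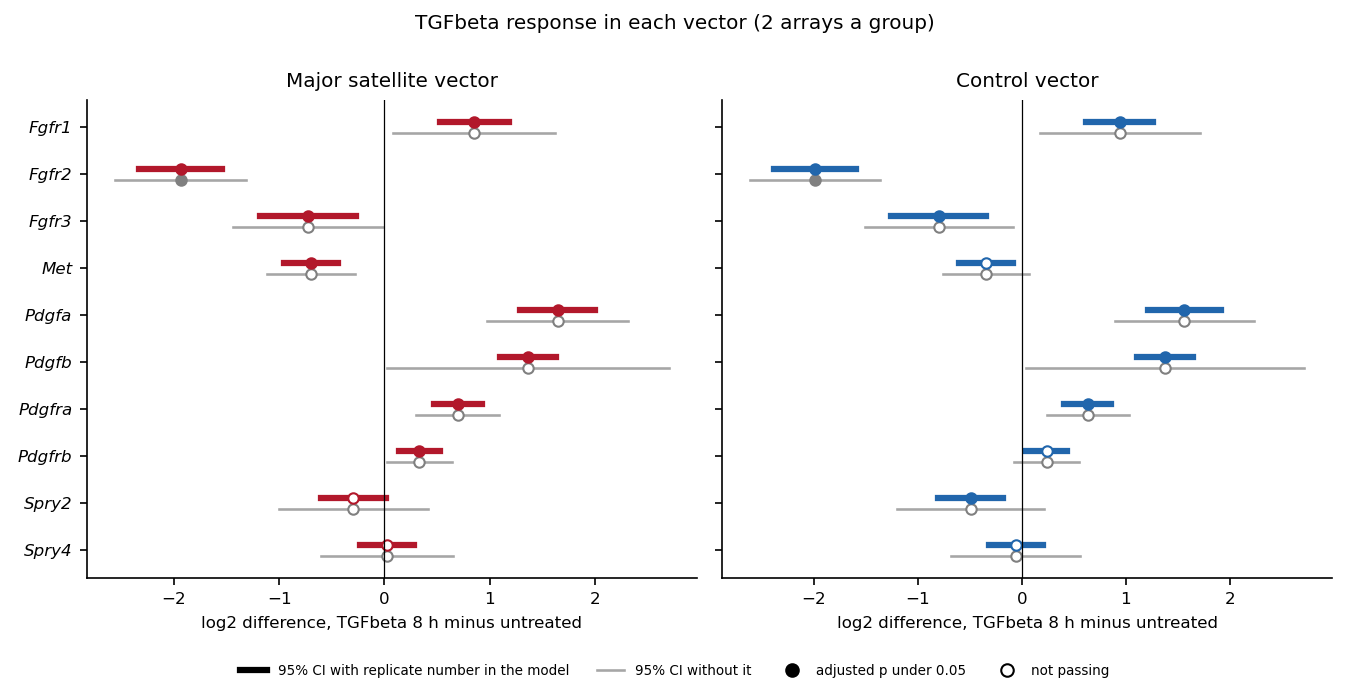
TGFbeta minus untreated log2 difference (horizontal axis) of each gene (rows) in major satellite cells (left panel) and control vector cells (right panel), 2 arrays per group. Thick coloured lines are 95% confidence intervals from the limma model with the replicate number, thin grey lines those without it, and filled points passed at an adjusted p under 0.05. Fgfr2 passes in both panels and both models, and the interval of Pdgfb is the one that narrows most with the replicate number.

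Pdgfa and Pdgfb encode the A and B chains of PDGF, which bind as dimers to the PDGF receptors. Pdgfa had 12.25 and 12.15 after TGFbeta in major satellite cells, against 10.86 and 10.24 untreated. With the control vector, Pdgfa had 12.26 and 12.17 after TGFbeta, against 11.00 and 10.31 untreated. The 4 TGFbeta arrays agreed closely, and all were more than 1 log2 unit above the untreated ones. Pdgfa rose by 1.60 ± 0.20 in the mean response, 3.04-fold (adjusted p = 0.00881). It passed with any 1 array left out (adjusted p = 0.0125 to 0.0454). By vector it did not pass without the replicate number in the model, at 1.64 ± 0.28 in major satellite cells (adjusted p = 0.0603, blocked 0.000217) and 1.56 ± 0.28 in control vector cells (adjusted p = 0.0688, blocked 0.000254).

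Pdgfb moved in parallel with a wide gap between replicate numbers. In major satellite cells it had 12.35 and 11.54 after TGFbeta, against 11.16 and 10.01 untreated, and in control vector cells 12.45 and 11.68 after TGFbeta, against 11.27 and 10.10 untreated. The groups did not overlap, although arrays of replicate number 2 differed from those of number 1 by -0.98 log2 units on average, the widest such gap of the 10 genes. The mean difference was 1.37 ± 0.39, 2.59-fold, which did not pass (adjusted p = 0.135). Blocked, Pdgfb rose (1.37 ± 0.08, adjusted p = 6.57e-06), and it passed in each vector with any 1 array left out. The 4 pairs gave 1.19 and 1.54 with the major satellite and 1.18 and 1.58 with the control vector.

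The receptors for these ligands are expressed mainly by mesenchymal cells, PDGFRA binding all PDGF chains but D and PDGFRB binding B and D. Pdgfra had log2 values of 8.04 and 7.81 after TGFbeta in major satellite cells, against 7.43 and 7.03 untreated. Its values in control vector cells were 8.00 and 7.93 after TGFbeta, against 7.38 and 7.29 untreated. The 4 TGFbeta arrays were above all untreated arrays, and the 4 pairs differed by 0.61 to 0.78. Untreated values were dim, below the array medians of 7.72 to 7.92. Pdgfra rose by 0.66 ± 0.12, 1.59-fold (adjusted p = 0.0281, blocked 0.000162). The call without the replicate number was lost in 7 of the 8 fits that left out 1 array, all but the fit without untreated major satellite replicate 1 (adjusted p = 0.0317 to 0.107 over the 8). In control vector cells the blocked call (0.63, adjusted p = 0.0031) was lost without TGFbeta control vector replicate 2 (adjusted p = 0.0517). The mean response call without the replicate number was also lost when arrays were centred on their medians (0.66, adjusted p = 0.123).

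Pdgfrb differed less. It had 7.47 and 7.44 after TGFbeta in major satellite cells, against 7.22 and 7.03 untreated, and 7.40 and 7.29 after TGFbeta in control vector cells, against 7.20 and 7.01 untreated. All TGFbeta arrays were above all untreated ones, the nearest by less than 0.1. Values on all 8 arrays were dim, below the array medians of 7.72 to 7.92. The mean difference of 0.29 ± 0.09 did not pass (adjusted p = 0.183), and blocked Pdgfrb rose by 1.22-fold (adjusted p = 0.00778). By vector it passed only blocked and only in major satellite cells (0.33, adjusted p = 0.0312, against 0.24 in control vector cells, adjusted p = 0.109), and the difference between the responses was 0.09 ± 0.12 (blocked SE, adjusted p = 0.999). In major satellite cells that call was lost in 5 of the 8 blocked fits with 1 array left out (adjusted p = 0.0521 to 0.246).

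In bulk RNA, a change in the number of cells of a type and a change in RNA per cell cannot be told apart. Of 10 epithelial markers, Krt19 fell by 0.74 ± 0.11 in the mean response (adjusted p = 0.0178) and 9 did not pass (blocked 3 rose and 2 fell). Averaged over the 10, their level was 10.75 to 10.83 on TGFbeta arrays and 10.65 to 10.82 on untreated arrays. Over all 8 arrays Krt8 ranged from 14.19 to 14.42. Cdh1 ranged from 12.72 to 13.16. Epcam ranged from 6.53 to 7.16 and rose blocked (0.39 ± 0.09, adjusted p = 0.00981). Blocked, Krt7 (0.82, adjusted p = 0.000522) and Cldn3 (0.31, adjusted p = 0.0261) rose as well, and Ocln fell (-0.34, adjusted p = 0.0298). With limma, 0 of 8 fibroblast markers passed (1 at an unadjusted p under 0.05), and blocked 1 rose (Col1a1, 0.47 ± 0.07, adjusted p = 0.00103). Of 8 pericyte and smooth muscle markers 0 passed (0 at an unadjusted p under 0.05), and blocked Cspg4 (0.27, adjusted p = 0.024) and Acta2 (0.30, adjusted p = 0.00716) rose. Among 7 endothelial markers 0 passed (0 at an unadjusted p under 0.05), and blocked Cdh5 rose (0.30, adjusted p = 0.00783). Among 7 measured of 8 immune markers 0 passed (1 at an unadjusted p under 0.05), and blocked Csf1r rose (0.27, adjusted p = 0.00778) and Cd14 fell (-0.40, adjusted p = 0.000842). These counts stand beside 4.83% of all genes passing without the replicate number and 24.3% blocked. In lists this short, 0 passing lies near the first share. The share of all genes with an unadjusted p under 0.05 was not counted. The fibroblast list averaged 6.74 to 6.90 on TGFbeta arrays and 6.56 to 6.86 on untreated arrays, and the pericyte and smooth muscle list 7.00 to 7.35 on TGFbeta arrays and 6.82 to 7.25 on untreated arrays. The endothelial list averaged 6.78 to 6.99 on TGFbeta arrays and 6.66 to 6.89 on untreated arrays, and the immune list 7.59 to 7.85 on TGFbeta arrays and 7.60 to 7.84 on untreated arrays. The part of these cell types in the Pdgfra and Pdgfrb differences was not tested.

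Spry2 and Spry4 encode Sprouty proteins, feedback inhibitors that receptor tyrosine kinase signals induce. Spry2 had 8.74 and 8.52 after TGFbeta in major satellite cells, against 9.22 and 8.62 untreated. With the control vector it had 8.69 and 8.49 after TGFbeta, against 9.45 and 8.71 untreated. Each TGFbeta array was below its own partner, but the TGFbeta and untreated arrays overlapped. The mean difference was -0.39 ± 0.21 (adjusted p = 0.505), and blocked Spry2 fell by 0.39 ± 0.10 (adjusted p = 0.016). By vector it passed only blocked and in control vector cells (-0.49, adjusted p = 0.0425), a call lost in 5 of the 8 fits with 1 array left out, against -0.29 in major satellite cells (adjusted p = 0.196), and the difference between the responses did not pass. The call in the mean response was lost in 4 of the 8 blocked fits with 1 array left out, those without a replicate 1 array of any group (adjusted p = 0.0633 to 0.0748).

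Spry4 had 8.04 and 7.57 after TGFbeta in major satellite cells, against 8.10 and 7.46 untreated. Control vector cells had 8.03 and 7.73 after TGFbeta, against 8.03 and 7.85 untreated. The groups overlapped in both vectors. The mean difference was -0.02 ± 0.18 (adjusted p = 0.988, blocked 0.912), and its blocked 95% interval ran from -0.20 to 0.17.

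**Figure D3:**
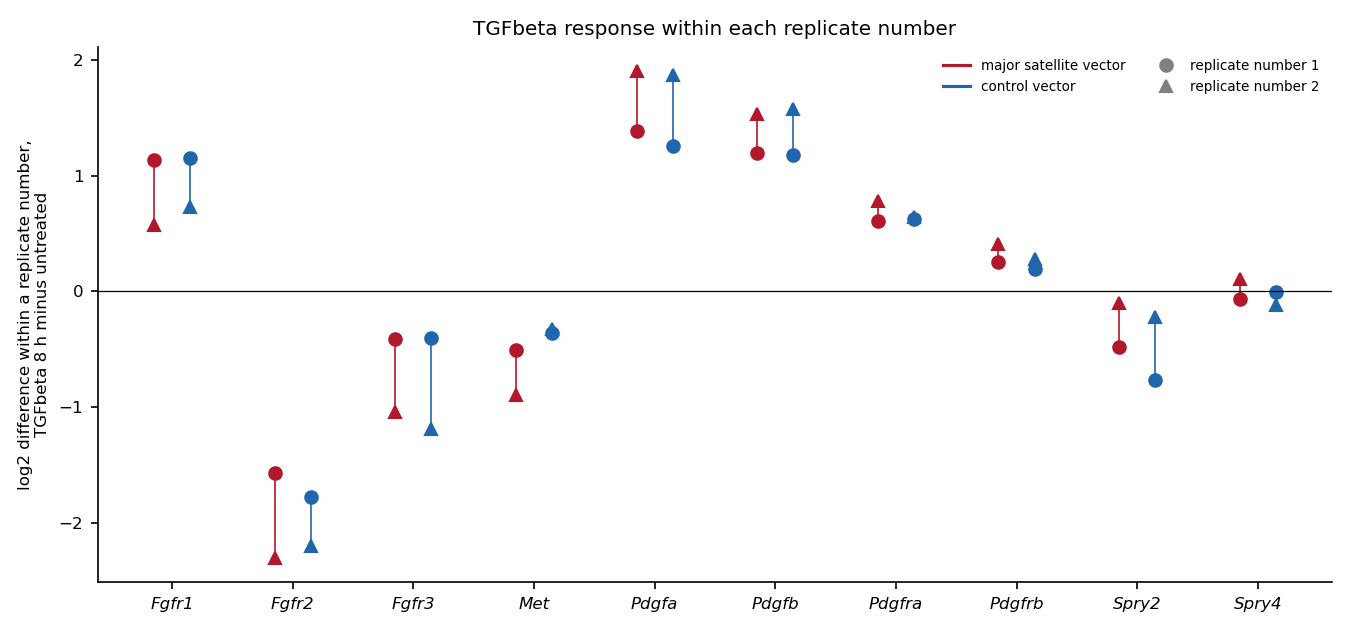
TGFbeta minus untreated log2 difference (vertical axis) of each gene (horizontal axis) between the 2 arrays of 1 replicate number and vector. Red is the major satellite vector, blue the control vector, circles replicate number 1 and triangles number 2. Both vectors show the same order of the replicate numbers for all genes but Met and Spry4, with Fgfr1 and Spry2 farther from 0 in number 1 and Fgfr2, Fgfr3, Pdgfa and Pdgfb farther from 0 in number 2.

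The size of several responses differed more between replicate numbers than between vectors. For Fgfr2 they were -1.57 with the major satellite and -1.78 with the control vector in number 1, and -2.31 and -2.20 in number 2. For Pdgfa they were 1.39 and 1.26 in number 1, and 1.90 and 1.87 in number 2, vectors in the same order. Whether the responses differ between replicate numbers was not tested.

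Other genes of these pathways were counted by list in the mean TGFbeta response, beside 4.83% of all genes passing without and 24.3% with the replicate number. Of 19 further genes of the FGF family and of its binding proteins, co-receptors and receptors, 2 fell, 0 rose and 17 did not pass (blocked 5 fell and 2 rose). Fgf1, which encodes a ligand of all FGF receptors, had 9.61 and 9.34 after TGFbeta in major satellite cells, against 10.64 and 10.91 untreated. With the control vector, Fgf1 had 9.57 and 9.76 after TGFbeta, against 10.34 and 11.05 untreated. It fell by 1.16 ± 0.18 (adjusted p = 0.0178), and Klb, which encodes the co-receptor beta-Klotho, fell by 0.71 ± 0.11 (adjusted p = 0.0181). Each Klb TGFbeta array was below its partner, but treatments overlapped across vectors (7.55 in major satellite TGFbeta replicate 1, 7.42 in untreated control vector replicate 1). Averaged over both treatments, Klb was 0.58 ± 0.09 higher in major satellite cells (blocked SE), which passed in neither model (blocked adjusted p = 0.063). Fgfrl1, an FGF receptor without a kinase domain, differed by 0.62 ± 0.15 (adjusted p = 0.0801, blocked 0.000188), and Fgfbp1, which encodes an FGF carrier protein, by -1.02 ± 0.25 (adjusted p = 0.0844, blocked 0.000456). The list's median difference was 0.02, as over all genes.

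Of 4 further genes listed with PDGF as ligands, receptor-like gene or co-receptor, Nrp1 fell and 3 did not pass (blocked 2 fell). Nrp1, which encodes the co-receptor neuropilin 1, had 10.39 and 10.57 after TGFbeta in major satellite cells, against 11.38 and 11.62 untreated. Its values in control vector cells were 10.42 and 10.75 after TGFbeta, against 11.31 and 11.47 untreated. The fall of 0.91 ± 0.12 (adjusted p = 0.0097) held with any 1 array left out. Without the replicate number, the ligand genes Pdgfd (-0.36 ± 0.16, adjusted p = 0.392) and Pdgfc (0.16 ± 0.14, adjusted p = 0.782) did not pass, nor did Pdgfrl (0.16 ± 0.08, adjusted p = 0.505). Blocked, Pdgfd fell (adjusted p = 0.0426), with log2 values of 5.76 to 6.68 over the 8 arrays.

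Of 10 genes of the HGF and macrophage-stimulating protein system, 1 rose, 0 fell and 9 did not pass (blocked 3 rose and 1 fell). Mst1r encodes RON, the receptor related to MET. It had 8.93 and 8.79 after TGFbeta in major satellite cells, against 8.23 and 7.91 untreated. In control vector cells Mst1r had 9.33 and 8.97 after TGFbeta, against 8.37 and 8.07 untreated. Mst1r rose by 0.86 ± 0.13 (adjusted p = 0.0193), the opposite sign to Met. Hgfac, an activating protease of HGF, differed by 0.35 ± 0.13 (adjusted p = 0.267, blocked 0.00307), and the protease gene Plau by 0.33 ± 0.19 (adjusted p = 0.569, blocked 0.00447), so that both rose blocked, as Mst1r did. Spint2, an inhibitor of HGF-activating proteases, differed by -0.19 ± 0.16 and passed in neither model (adjusted p = 0.766, blocked 0.0687). Hgf itself, chosen after its values were seen, had 5.69 to 5.95 on all 8 arrays and differed by 0.01 ± 0.08 (adjusted p = 0.985).

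Among 16 measured of 22 listed adaptors and members of the Ras-MAP kinase chain, 2 rose and 14 did not pass (blocked 7 rose and 1 fell). The other 6 were not analysed here. Gab2, which encodes a docking protein that recruits SHP2 and phosphatidylinositol 3-kinase, had 10.93 and 10.94 after TGFbeta in major satellite cells, against 9.89 and 9.51 untreated. Control vector cells had 11.07 and 11.26 after TGFbeta, against 10.06 and 9.76 untreated. Gab2 rose by 1.24 ± 0.12 (adjusted p = 0.00452), and Map2k1, which encodes the kinase MEK1, rose by 0.81 ± 0.11 (adjusted p = 0.0109). Pik3r1, a regulatory subunit of phosphatidylinositol 3-kinase, differed by -0.61 ± 0.20 (adjusted p = 0.184, blocked 9.09e-05), and Nras by 0.24 ± 0.09 (adjusted p = 0.242, blocked 0.0212).

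Feedback inhibitors and target genes of the MAP kinase pathway moved in both directions, with 3 of 18 rising, 3 falling and 12 not passing (blocked 5 rose and 5 fell). The 3 that fell were Spry1, Dusp6 and Flrt3, and the 3 that rose were Spred2, Dusp4 and Flrt2. Spry1, a Sprouty gene related to Spry2 and Spry4, had 8.81 and 8.27 after TGFbeta in major satellite cells, against 9.73 and 9.63 untreated. In control vector cells Spry1 had 8.75 and 8.33 after TGFbeta, against 9.71 and 9.61 untreated. It fell by 1.13 ± 0.15 (adjusted p = 0.0122). Dusp6, which encodes a phosphatase of ERK and is widely used as a readout of FGF signalling, fell by 1.20 ± 0.20 (adjusted p = 0.0256). Dusp4, which encodes another MAP kinase phosphatase, rose by 0.72 ± 0.10 (adjusted p = 0.0111), as did Spred2, a Sprouty-related inhibitor of the Ras-MAP kinase chain, by 1.01 ± 0.10 (adjusted p = 0.00448). Flrt2 rose by 1.37 ± 0.21 (adjusted p = 0.0193) and Flrt3 fell by 0.95 ± 0.16 (adjusted p = 0.0262), both encoding membrane proteins known to bind FGF receptors. The ETS factor genes Etv4 and Etv5, further readouts of FGF signalling, differed by 0.17 ± 0.25 and 0.18 ± 0.18 (adjusted p = 0.898 and 0.824), and Dusp6, Flrt3, Etv4 and Etv5 were chosen after their values were seen.

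**Figure D4:**
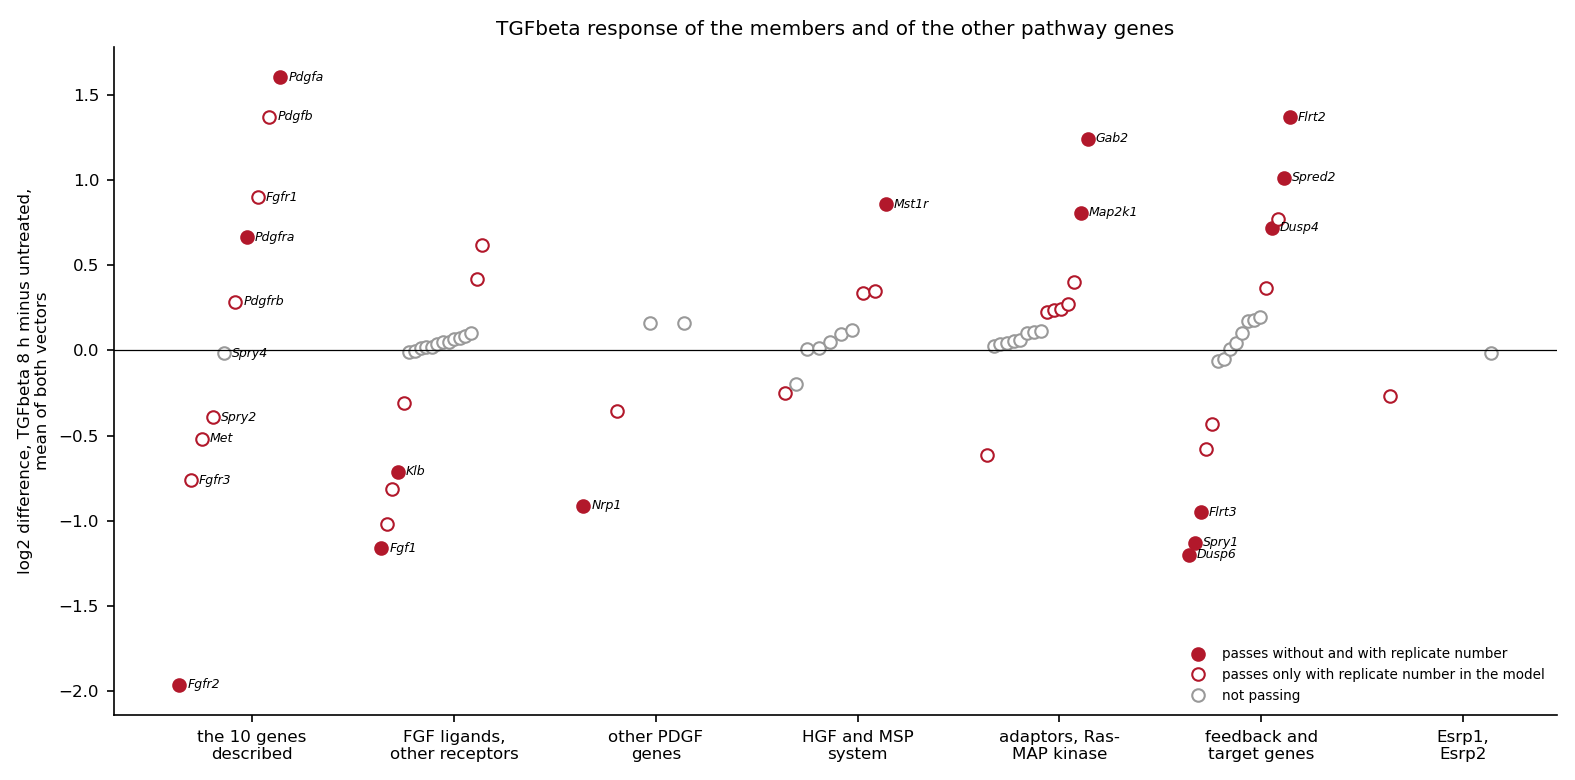
Mean TGFbeta minus untreated log2 difference over both vectors (vertical axis) for the 10 genes described and for the other measured genes of each pathway list (horizontal axis, genes ordered by value within a list). Filled red points pass without and with the replicate number in the model, open red points pass only with it and grey points pass in neither. Fgfr2 at -1.96 is the lowest and Pdgfa at 1.60 the highest point shown.

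When 1 array was left out, Nrp1, Gab2 and Spred2 passed in all 8 fits without the replicate number, and Map2k1, Dusp4 and Spry1 in 6. Fgf1, Mst1r and Flrt2 passed in 3, Flrt3 in 2 and Klb and Dusp6 in 1, with adjusted p up to 0.106. All 12 of these genes passed blocked.

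The profile of each of 4 members across the 8 arrays, after the mean of each replicate number was taken off, was set against 9959 other genes that varied at least as much as the median gene. The 3 genes most like Fgfr2 were Brip1, Pfas and Ston2 (Pearson r = 0.999, 0.999 and 0.998). Those most like Pdgfa were Lmcd1, St3gal2 and Sned1 (r = 0.999, 0.999 and 0.998), and those most like Pdgfra were Homer3, AI661453 and Rnf24 (r = 0.999, 0.997 and 0.996). For Met they were Cers2, Yae1d1 and Ugcg (r = 0.996, 0.994 and 0.994). These are descriptions over arrays that share vector, treatment and replicate number.

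The last comparisons asked whether the major satellite vector altered these genes. With the replicate number in or out of the limma model, 0 of 10 members passed between major satellite and control vector cells, untreated or after TGFbeta, and 0 had an unadjusted p under 0.05. By adjusted p, these tests called 0.00502% of all genes at either treatment (blocked 0.0301%). The share of all genes with an unadjusted p under 0.05 was not counted. Averaged over both treatments, the vector difference lay between -0.15 ± 0.21 for Fgfr3 and 0.07 ± 0.09 for Pdgfrb (adjusted p = 1 for each of the 10, blocked 0.881 to 1), in a test that called 0.0100% of all genes (blocked 0.0853%). The blocked 95% intervals bound what these arrays allow. That of Fgfr2 was -0.28 to 0.28, that of Pdgfa -0.31 to 0.19, that of Pdgfra -0.23 to 0.09 and the widest, that of Fgfr3, -0.47 to 0.18.

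Fgfr1, Pdgfa and Pdgfb were lower in major satellite cells in all 4 pairs of arrays, and Pdgfrb was higher in all 4. This made 4 of 10 members with 1 sign, against 16.6% of all genes (8.45% higher and 8.11% lower). The sizes were small, with a mean of -0.06 for Fgfr1, -0.06 for Pdgfa, -0.11 for Pdgfb and 0.07 for Pdgfrb, and none passed.

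The TGFbeta response itself differed between the vectors for 0 of 10 members and 0.00% of all genes, with or without the replicate number, and 0 members had an unadjusted p under 0.05. For all genes, that unadjusted count was not made. For Fgfr2 the difference of responses was 0.05 ± 0.25 with a blocked 95% interval of -0.51 to 0.61. For Pdgfa it was 0.08 ± 0.22 (-0.42 to 0.58), for Pdgfb -0.01 ± 0.17 (-0.39 to 0.37) and for Fgfr1 -0.09 ± 0.20 (-0.55 to 0.37), blocked values throughout. Met had the largest size of the 10, -0.36 ± 0.16, and Spry2 followed at 0.20 ± 0.19 (-0.24 to 0.64).

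**Figure D5:**
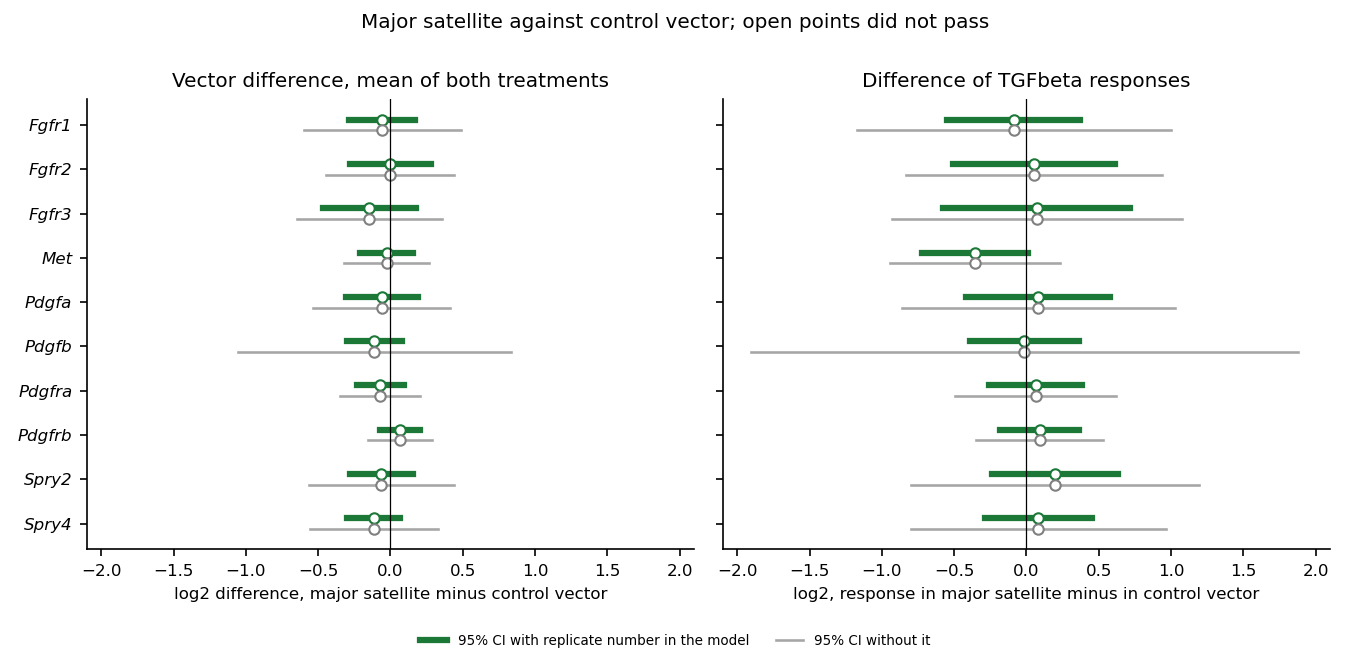
Major satellite minus control vector log2 difference averaged over both treatments (left panel) and TGFbeta response in major satellite minus that in control vector cells (right panel), in log2 units on the horizontal axes, for each gene (rows). Green lines are 95% confidence intervals from the limma model with the replicate number and grey lines those without it. All intervals include 0 and no point passes.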

How the data were processed

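Gene expression was measured in 8 arrays, 2 in each of 4 groups set by the array titles. The deposited values are log2 levels of each probeset and have the range that RMA gives. The submitters' processing notes list RMA and limma with no version or role. Array medians were 7.72 to 7.76 for replicate number 1 and 7.88 to 7.92 for number 2. The number of arrays limits the precision. Nothing in the labels says that the 2 arrays of a group came from separate cultures, so a p-value reflects the spread between the arrays at hand, which may be technical. Levels of different probesets are not on a common scale and are not compared.

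Symbols came from the platform's probe table, updated through Entrez identifiers with RefSeq (GRCm38.p6) for 19855 of 19937 genes. Of the 34760 probesets, 21640 had 1 symbol, 1321 had several and 11799 had none in the table. Where a gene had several probesets, the brightest was used. The 10 members had 10 probesets and none shared with another gene.

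Each group had its own mean in a linear model of the 8 arrays (4 residual degrees of freedom), run in R 4.3.3 with limma 3.58.1 and its moderated test. P-values are two-sided and adjusted by Benjamini-Hochberg over 19937 genes, and errors are SE. The replicate number was added as a block in a second model with 3 residual degrees of freedom. The pairing comes from the title codes, and deviations from group means correlated across genes between same-numbered arrays at r = 0.758 to 0.874. The fitting code was tested on simulated data. Other settings were centring arrays, leaving out dim genes, fitting every single-symbol probeset, an intensity trend, and leaving out each array. The members, pathway lists, marker lists and tests were chosen with earlier results of these data known. By rule, the text names all members and up to 4 genes per pathway list with the smallest p in the mean TGFbeta response, whatever that p. Pathway genes outside that rule are called chosen after their values were seen. Likeness was ranked for the 4 members with the smallest p in that response.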

Additional observations from a re-analysis of the deposited data

How the results depend on the processing

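The replicate block moved the counts of passing members most. With it, 8 members passed in major satellite cells, 7 in control vector cells and 9 in the mean TGFbeta response, against 1, 1 and 3 without it. It changed no call between vectors or between the TGFbeta responses, and no fitted difference, since the design is balanced. Without the block, leaving out 1 array gave 0 to 1 passing members in major satellite cells, 0 in control vector cells with every array, and 2 to 3 in the mean response. With the block, the ranges were 5 to 8 in major satellite cells, where the lowest count came without untreated major satellite replicate 2, and 4 to 8 in control vector cells, where it came without TGFbeta control vector replicate 2, and 8 to 9 in the mean response. Centring arrays on their medians and leaving out genes below the median level gave 2 in the mean response, Pdgfra having been lost in both (it is below the median level and so not tested in the second). An intensity trend and the fit of every single-symbol probeset gave 3. No member had a second probeset to compare. The precision rests on 2 arrays per group.

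Signs turned for some differences, none of which passed with all 8 arrays in either model. Centring moved the mean vector difference of Fgfr2 to 0.014. With 1 array left out, mean vector differences ran from -0.26 to 0.15 for Fgfr1, -0.16 to 0.16 for Fgfr2, -0.36 to 0.071 for Fgfr3, -0.23 to 0.11 for Pdgfa, -0.40 to 0.18 for Pdgfb, -0.17 to 0.028 for Pdgfra, -0.11 to 0.051 for Met, -0.25 to 0.12 for Spry2 and -0.28 to 0.046 for Spry4. Differences between the TGFbeta responses ran from -0.50 to 0.32 for Fgfr1, -0.27 to 0.37 for Fgfr2, -0.36 to 0.51 for Fgfr3, -0.27 to 0.43 for Pdgfa, -0.60 to 0.57 for Pdgfb, -0.14 to 0.26 for Pdgfra, -0.0083 to 0.19 for Pdgfrb, -0.17 to 0.57 for Spry2 and -0.24 to 0.40 for Spry4. The TGFbeta response ran from -0.59 to 0.0050 for Spry2 and -0.30 to 0.35 for Spry4 in major satellite cells, for Spry4 from -0.20 to 0.089 in control vector cells and from -0.18 to 0.14 in the mean response, and for Esrp1 from -0.11 to 0.081 in the mean response. The cause was not tested.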
